A study of Mus musculus with 6 samples.

Results

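The 10 genes described here encode the enzymes of lower glycolysis (Aldoa, Gapdh, Pgk1, Pgam1, Pgam2, Eno1, Eno3 and Pkm) and the lactate dehydrogenase subunits (Ldha and Ldhb). They were chosen by symbol, and each symbol matched 1 of the 27998 genes counted in every library. Lower glycolysis splits fructose bisphosphate and converts its products to pyruvate, with a net yield of ATP, and lactate dehydrogenase interconverts pyruvate and lactate. Several steps are carried out by isoforms from separate genes: Eno1 and Pgam1 encode the enolase and phosphoglycerate mutase found in most tissues, Eno3 and Pgam2 the muscle forms, and Ldha and Ldhb the subunits that prevail in skeletal muscle and in heart, respectively. The fetal heart relies largely on glycolysis and lactate, and the heart turns to fatty acid oxidation after birth.

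Droplet-based single-cell RNA sequencing was performed on cardiomyocytes (CMs) from the left ventricle of C57BL/6J mice, in which each captured RNA molecule is counted once as a unique molecular identifier (UMI). The groups were CMs with a diploid (2n) or tetraploid (4n) DNA content from embryonic day 16.5 (E16.5) and postnatal days 1 (P1) and 5 (P5), named by age and ploidy (E16.5-4n, for example). All cells were methanol-fixed, stained for MYH1 and Hoechst and sorted, and cells of 3 sorts were pooled into 1 library per group. Thus there is no replicate library, age goes with litter and library, and no test between groups was made. The paper describes 3 sorts per age, each of 1 litter, with 2n and 4n gates on the same stained cells. The 2n and 4n libraries of an age are therefore taken to share litters. A change seen in both ploidies is thus not a replicate in independent animals. The 4n gate is set by DNA content, so that it can hold binucleated CMs, CMs in G2/M and paired 2n cells, which cannot be told apart by the gate.

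The 6 libraries held 31156 cells, of which 30733 (98.6%) had at least 1 UMI of each of the CM genes Tnni3, Tnnt2, Tnnc1 and Actc1 and were kept as CMs, 3654 to 7340 per library. These CMs held 13070343 to 19665830 UMIs per library, with a median of 1831 (P1-2n) to 4658 (P5-4n) UMIs per CM. The 27 marker genes of fibroblasts, endothelial, immune, mural and epicardial cells summed to 173 to 332 counts per 1000000 UMIs (CPM) in the 2n libraries and to 432 to 1030 CPM in the 4n libraries. The 24 cycling genes summed to 1112, 210 and 538 CPM in 2n CMs with increasing age and to 4514, 711 and 2424 CPM in 4n CMs. Haemoglobin Hbb-bs, which CMs are not known to make, was seen in 33.5% (P5-4n) to 68.5% (E16.5-4n) of CMs thinned to 1000 UMIs. Mitochondrially encoded genes made up 8.16 to 8.28% of the UMIs at E16.5 and 16.3 to 18.0% after birth. Between 17 and 62 cell barcodes were shared by each of the 15 pairs of libraries.

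All 10 genes are protein-coding. In GRCm38, Aldoa lies at chr7:126795234-126800751 (minus strand), Gapdh at chr6:125161715-125166467 (minus strand), Pgk1 at chrX:106187100-106203699 (plus strand) and Pkm at chr9:59656368-59679375 (plus strand). Of the isoform pairs, Pgam1 lies at chr19:41911923-41918660 (plus strand) and Pgam2 at chr11:5801640-5803733 (minus strand), Eno1 at chr4:150236721-150248879 (plus strand) and Eno3 at chr11:70657202-70662513 (plus strand), and Ldha at chr7:46841475-46855627 (plus strand) and Ldhb at chr6:142490249-142507957 (minus strand). Reads of this assay come mainly from the 3′ ends of transcripts, so the M1 and M2 splice forms of Pkm, which differ in an internal exon, were not separated. Of the 100-base windows in the last 500 bases of the Eno1 transcript, 48.4% also occur in Eno1b. Of those of Gapdh, 31.7% also occur in Gm3839 and 76.8% in any other annotated gene. Of those of Ldhb, 12.0% also occur in Gm5514, which is not among the genes counted. Only reads mapped with confidence were counted by the authors, so that the counts of Eno1, Gapdh and, to a smaller extent, Ldhb are uncertain and may be too low. Eno1b was counted at 16.1 CPM in 2n and 14.8 in 4n CMs of E16.5 hearts. Pgk1-rs7, a processed pseudogene, was counted there at 7.32 and 7.04 CPM. No such window in the last 500 bases of the Pgk1 transcript occurs in another gene. Whether transcripts of the 10 genes are captured equally well was not measured, so ranks between them are ranks of UMIs.

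The promoter windows of Ldha and Ldhb, and of Pgam1 and Pgam2, are shown as examples of pairs whose members changed differently with age. The enolase pair did so too, and its windows are described by counts only. The windows shown are the 300 bases from 250 before to 50 after the transcription start in RefSeq (GRCm38.p6), 5′ to 3′ on the strand of the gene. They lie at chr7:46845554-46845853 for Ldha, chr6:142507908-142508207 for Ldhb, chr19:41911621-41911920 for Pgam1 and chr11:5803747-5804046 for Pgam2. The end of the Ldhb window was found in the start of a GENCODE transcript of its gene, and those of Ldha, Pgam1 and Pgam2 were not. The windows of Pgam1 and Pgam2 end before the gene starts given above, so the place of their transcription start differs between annotations. Capitals mark the cores of hypoxia response elements, ACGTG or GCGTG, on either strand.
Ldha: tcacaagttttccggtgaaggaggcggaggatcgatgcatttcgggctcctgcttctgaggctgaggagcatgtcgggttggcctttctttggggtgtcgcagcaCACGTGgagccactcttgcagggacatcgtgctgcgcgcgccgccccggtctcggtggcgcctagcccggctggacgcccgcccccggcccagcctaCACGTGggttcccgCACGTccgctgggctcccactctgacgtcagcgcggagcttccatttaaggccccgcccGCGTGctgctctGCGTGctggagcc
Ldhb: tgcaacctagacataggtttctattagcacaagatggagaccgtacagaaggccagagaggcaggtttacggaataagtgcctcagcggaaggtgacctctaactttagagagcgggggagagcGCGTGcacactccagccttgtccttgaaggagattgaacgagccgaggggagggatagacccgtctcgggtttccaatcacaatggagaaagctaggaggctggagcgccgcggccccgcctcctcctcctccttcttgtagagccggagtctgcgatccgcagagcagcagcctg
Pgam1: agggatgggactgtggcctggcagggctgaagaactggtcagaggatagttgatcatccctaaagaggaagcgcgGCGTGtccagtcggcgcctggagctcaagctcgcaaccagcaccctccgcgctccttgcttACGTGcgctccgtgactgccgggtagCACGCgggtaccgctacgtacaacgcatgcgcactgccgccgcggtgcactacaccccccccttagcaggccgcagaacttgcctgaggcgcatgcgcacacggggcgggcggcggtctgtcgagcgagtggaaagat
Pgam2: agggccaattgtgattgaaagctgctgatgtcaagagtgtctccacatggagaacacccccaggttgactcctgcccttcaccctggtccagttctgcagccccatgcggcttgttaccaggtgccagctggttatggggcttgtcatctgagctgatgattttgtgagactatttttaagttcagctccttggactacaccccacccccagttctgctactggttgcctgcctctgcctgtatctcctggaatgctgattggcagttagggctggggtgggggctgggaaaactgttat

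The Ldha window (the first of 2 in RefSeq) held ACGTG 5 times over both strands, and 2 of the places are CACGTG, where the motif reads on both strands and is counted on each. It also held GCGTG 2 times. The second Ldha window, which is not printed, held GCGTG 2 times and no ACGTG. The end of that second window was found in the start of a GENCODE transcript of Ldha. The Pgam1 window held ACGTG 1 time and GCGTG 2 times. The Ldhb window held GCGTG 1 time and no ACGTG, and that of Pgam2 held neither. Of the enolases, whose windows are not printed, Eno1 held GCGTG 2 times and no ACGTG in each of its 3 windows. The Eno3 window held GCGTG 1 time and no ACGTG. All 10 genes had a window, 16 in all. ACGTG was found in 7 of the 16 windows (6 of the 10 genes: Aldoa, Gapdh, Pgk1, Pgam1, Pkm and Ldha), against 19.6% of all 32851 windows of the annotation. GCGTG was found in 9 of the 16 (6 of the 10 genes: Gapdh, Pgam1, Eno1, Eno3, Ldha and Ldhb), against 32.4% of all windows. Some windows of Aldoa and of Eno1 overlap, so that the same sites are counted more than once. The GC content of the 16 windows was 52.7 to 69.0%, and the windows of the annotation were not matched for it. CACGTG was found in the first Ldha window only of the 16, against 7.15% of all windows. Matches describe the letters in these windows, and no binding was measured.

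The 10 genes together made up 12403 CPM in 2n and 10098 in 4n CMs of E16.5 hearts, 7782 and 6999 in those of P1 hearts and 8520 and 7839 in those of P5 hearts. Both E16.5 libraries were above all postnatal ones, and only the 95% Poisson intervals of P5-4n and P1-2n overlapped. These intervals, like those below, cover counting error only. In CMs thinned to 1000 UMIs, the median was 12 UMIs of the 10 genes per CM in the 2n and 10 in the 4n library of E16.5, 7 in P1-2n, P1-4n and P5-4n, and 8 in P5-2n. From E16.5 to P1 the log2 ratio of the sum was -0.67 (95% counting interval -0.68 to -0.66) in 2n and -0.53 (-0.54 to -0.52) in 4n CMs. From E16.5 to P5 it was -0.54 (-0.55 to -0.53) and -0.37 (-0.38 to -0.35). The median of all genes also lay below 0 in these comparisons, at -0.34, -0.30, -0.45 and -0.51 on the log2 scale. When libraries were scaled by the median of ratios, the ratio of the sum from E16.5 to P5 became -0.12 in 2n and 0.062 in 4n CMs, so that the direction of the sum to P5 in 4n CMs rests on the scaling.

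**Figure D1:**
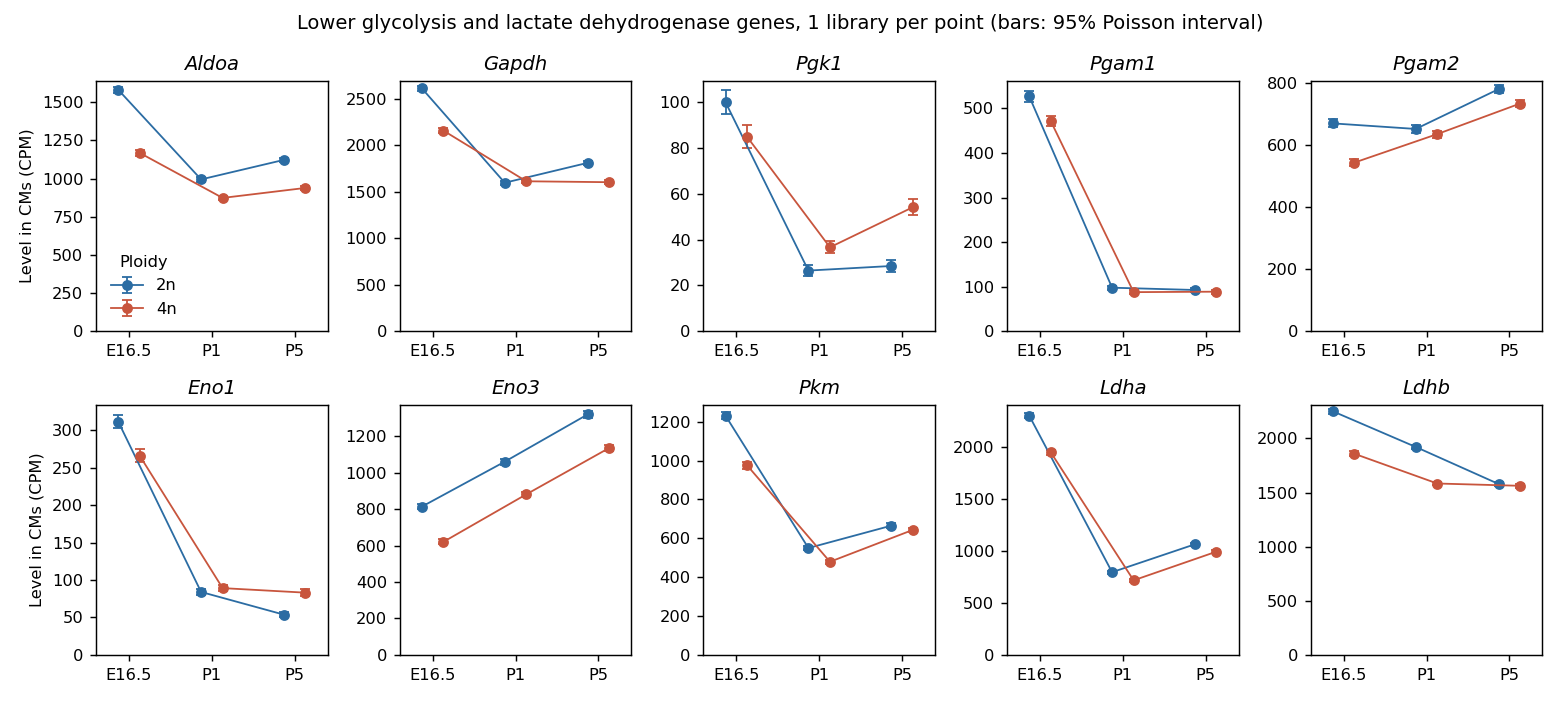
Level of each of the 10 genes in CMs (CPM, linear axis from 0) at E16.5, P1 and P5 in 2n (blue) and 4n (red) CMs, 1 library per point, with 95% Poisson intervals of the counts. Aldoa, Gapdh, Ldha, Pkm, Pgk1, Pgam1 and Eno1 are highest in the 2 E16.5 libraries. Eno3 is higher at each later age in both ploidies, and Pgam1 stays between 87.7 and 97.7 CPM after birth.

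Aldoa, the aldolase of muscle and most other tissues, was counted at 1582 CPM in 2n and 1168 in 4n CMs of E16.5 hearts, 995 and 873 in those of P1 hearts and 1123 and 939 in those of P5 hearts. The level was highest at E16.5 in both ploidies, lower in 4n than in 2n CMs at each age, and no intervals of neighbouring libraries overlapped. From E16.5 to P1 the log2 ratio was -0.67 in 2n and -0.42 in 4n CMs, short of 2-fold. Gapdh, which oxidises glyceraldehyde phosphate and yields NADH, was counted at 2612 CPM in 2n and 2158 in 4n CMs of E16.5 hearts, 1597 and 1613 in those of P1 hearts and 1811 and 1603 in those of P5 hearts. Gapdh was thus the most abundant of the 10 in every library but P1-2n, where Ldhb was above it, although its interval overlapped that of Ldhb in P1-4n. The intervals of P1-4n, P5-4n and P1-2n overlapped. The log2 ratio of Gapdh from E16.5 to P1 was -0.71 in 2n and -0.42 in 4n CMs.

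Pgk1, the phosphoglycerate kinase that yields the first ATP of this stretch, had the fewest UMIs of the 10 in every library. It was counted at 99.8 CPM in 2n and 84.8 in 4n CMs of E16.5 hearts, 26.5 and 36.6 in those of P1 hearts and 28.5 and 54.1 in those of P5 hearts. These levels rest on 435 to 1460 UMIs per library, and the intervals of P1-2n and P5-2n overlapped. From E16.5 to P1 Pgk1 fell by a log2 ratio of -1.92 (-2.07 to -1.76) in 2n and -1.21 (-1.35 to -1.07) in 4n CMs. From P1 to P5 the log2 ratio was 0.11 (-0.08 to 0.29) in 2n and 0.56 (0.42 to 0.70) in 4n CMs. Pkm, the pyruvate kinase that makes pyruvate and the second ATP, was counted at 1230 CPM in 2n and 975 in 4n CMs of E16.5 hearts, 549.9 and 479 in those of P1 hearts and 665 and 643 in those of P5 hearts. It was lowest at P1 in both ploidies, and the intervals of P5-2n and P5-4n overlapped. Its log2 ratio from E16.5 to P1 was -1.16 (-1.20 to -1.13) in 2n and -1.03 (-1.06 to -0.99) in 4n CMs, which became -0.86 and -0.72 with the median of ratios.

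Pgam1 showed the largest change of the 10 genes from E16.5 to P1 in both ploidies. It was counted at 527 CPM in 2n and 471 in 4n CMs of E16.5 hearts, 97.7 and 87.7 in those of P1 hearts and 92.5 and 88.7 in those of P5 hearts. The intervals of the 4 postnatal libraries overlapped between neighbours, and all lay far below both E16.5 libraries. From E16.5 to P1 Pgam1 fell 5.39-fold in 2n and 5.38-fold in 4n CMs, or by a log2 ratio of -2.43 in each. Pgam2, the muscle mutase, was counted at 671 CPM in 2n and 544 in 4n CMs of E16.5 hearts, 653 and 636 in those of P1 hearts and 781 and 735 in those of P5 hearts. Its highest levels were those at P5, and the intervals of E16.5-2n, P1-2n and P1-4n overlapped between neighbours. The log2 ratio of Pgam2 at P5 over E16.5 was 0.22 (0.18 to 0.26) in 2n and 0.43 (0.39 to 0.47) in 4n CMs, well short of 2-fold.

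Pgam1 made up 44.0% of the UMIs of the mutase pair in 2n and 46.4% in 4n CMs of E16.5 hearts, 13.0% and 12.1% in those of P1 hearts and 10.6% and 10.8% in those of P5 hearts. UMIs are counted at 3′ ends and do not grow with transcript length. The ratio of Pgam1 to Pgam2 was 0.785 and 0.866 before birth, 0.150 and 0.138 on P1 and then 0.118 and 0.121 on P5, in 2n and 4n CMs respectively. By P5 it had fallen by a log2 ratio of -2.73 (-2.81 to -2.64) in 2n and -2.84 (-2.93 to -2.75) in 4n CMs. Most of the fall lay before P1, since the log2 change from P1 to P5 was -0.34 in 2n and -0.19 in 4n CMs. The later change in 4n CMs became 0.02 in CMs thinned to 2000 UMIs.

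Eno1 was counted at 312 CPM in 2n and 266 in 4n CMs of E16.5 hearts, 84.1 and 89.2 in those of P1 hearts and 53.8 and 83.2 in those of P5 hearts. The intervals of P1-4n, P1-2n and P5-4n overlapped between neighbours, and P5-2n was below all others. Its log2 ratio from E16.5 to P5 was -2.53 (-2.64 to -2.43) in 2n and -1.68 (-1.76 to -1.59) in 4n CMs. Eno3 was counted at 814 CPM in 2n and 621 in 4n CMs of E16.5 hearts, 1060 and 881 in those of P1 hearts and 1320 and 1135 in those of P5 hearts. It was higher at each later age in both ploidies, with no overlap between neighbouring intervals. Of the other 9 genes only Pgam2 came near this, with a log2 ratio in 2n CMs from E16.5 to P1 of -0.04 that became 0.26 with the median of ratios. The log2 ratio of Eno3 at P5 over E16.5 was 0.70 (0.67 to 0.73) in 2n and 0.87 (0.83 to 0.91) in 4n CMs, and 1.12 and 1.30 with the median of ratios.

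The share of Eno1 in the enolase pair was 27.7% in 2n and 30.0% in 4n CMs of E16.5 hearts, 7.35% and 9.20% in those of P1 hearts and 3.92% and 6.82% in those of P5 hearts. Reads shared with Eno1b may make these shares too low. In 2n and 4n CMs the ratio of Eno1 to Eno3 was 0.383 and 0.428 before birth. It was 0.0793 and 0.101 on P1 and then 0.0408 and 0.0732 on P5. From E16.5 to P5 the ratio fell by a log2 ratio of -3.23 (-3.34 to -3.13), or 9.39-fold, in 2n and -2.55 (-2.64 to -2.45), or 5.85-fold, in 4n CMs. From P1 to P5 the log2 change was larger in size than that of the mutase pair, at -0.96 (-1.08 to -0.84) in 2n and -0.47 (-0.57 to -0.36) in 4n CMs. The summed level of the pair was 1126, 1144 and 1373 CPM in 2n and 886, 970 and 1219 CPM in 4n CMs from E16.5 to P5, so the pair as a whole was not lower after birth.

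**Figure D2:**
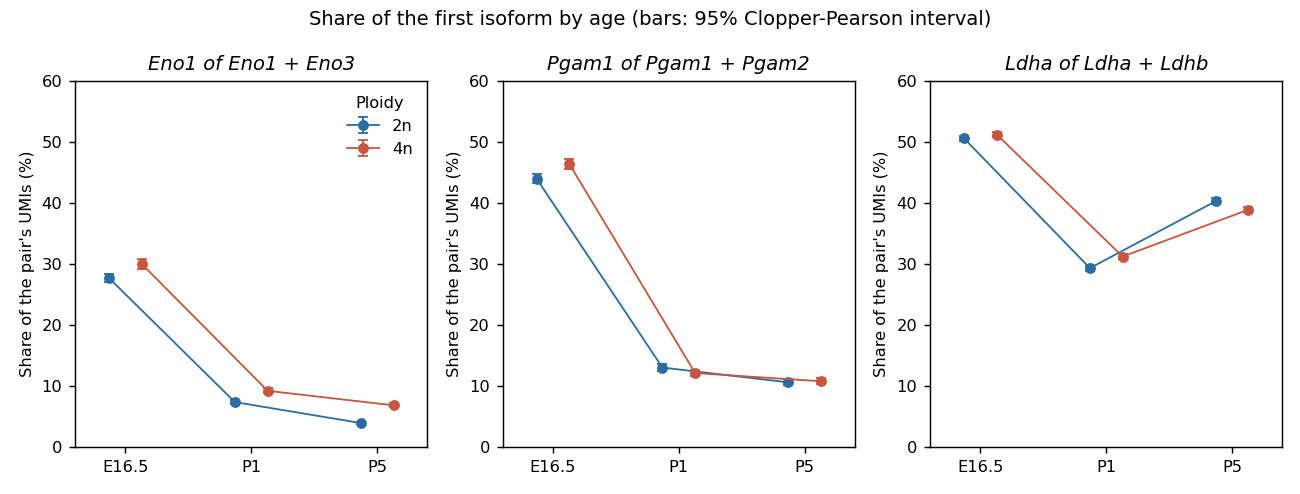
Share (%) of Eno1 in Eno1 plus Eno3, of Pgam1 in Pgam1 plus Pgam2 and of Ldha in Ldha plus Ldhb, from summed UMIs of CMs at E16.5, P1 and P5 in 2n (blue) and 4n (red), 1 library per point, with 95% Clopper-Pearson intervals. The first 2 shares are lower at each later age, whereas the share of Ldha is lowest at P1, at 29.3% and 31.2%, and higher again at P5, at 40.3% and 38.9%.

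Ldha, whose subunit favours the reduction of pyruvate to lactate, was counted at 2305 CPM in 2n and 1952 in 4n CMs of E16.5 hearts, 797 and 719 in those of P1 hearts and 1066 and 995 in those of P5 hearts. It was lowest at P1 and stayed below the embryonic levels at P5, with no overlap between neighbouring intervals. From E16.5 to P1 the log2 ratio of Ldha was -1.53 (a 2.89-fold fall) in 2n and -1.44 (-1.47 to -1.41) in 4n CMs. From P1 to P5 it was 0.42 (0.39 to 0.45) and 0.47 (0.44 to 0.50), in the opposite direction. Ldhb, whose subunit favours the oxidation of lactate, was counted at 2251 CPM in 2n and 1858 in 4n CMs of E16.5 hearts, 1922 and 1584 in those of P1 hearts and 1579 and 1563 in those of P5 hearts. The intervals of P1-4n, P5-2n and P5-4n overlapped. The log2 ratio of Ldhb from E16.5 to P1 was -0.23 in both ploidies and became 0.07 in both with the median of ratios, so its direction depends on the scaling.

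Ldha made up 50.6% of the UMIs of the lactate dehydrogenase pair in 2n and 51.2% in 4n CMs of E16.5 hearts, 29.3% and 31.2% in those of P1 hearts and 40.3% and 38.9% in those of P5 hearts. The UMIs of the pair were thus nearly even before birth and leaned to Ldhb after it, less so at P5 than at P1. Whether transcripts of both genes are captured equally well was not measured, and reads shared with Gm5514 may make the counts of Ldhb too low. The ratio of Ldha to Ldhb was 1.02 and 1.05 before birth, 0.415 and 0.454 on P1 and then 0.675 and 0.637 on P5, in 2n and 4n CMs. From E16.5 to P1 it fell by a log2 ratio of -1.30 (-1.34 to -1.27) in 2n and -1.21 (-1.25 to -1.17) in 4n CMs. From P1 to P5 the log2 change was 0.70 (0.66 to 0.74) and 0.49 (0.45 to 0.53). A ratio of genes within a library does not depend on how the libraries are scaled. The 3 pairs differed in course: the share of the first gene was lowest at P5 for the enolases and mutases and at P1 for lactate dehydrogenase, in both ploidies.

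Counted by a fixed size, 2-fold or more among genes with at least 100 UMIs over both libraries, 5 of the 10 genes (Pgam1, Pgk1, Eno1, Ldha and Pkm) were lower at P1 than at E16.5 in 2n CMs, against a background of 12.1% of all genes tested. The same 5 were lower in 4n CMs, against 11.6%. From E16.5 to P5, 4 of the 10 (Eno1, Pgam1, Pgk1 and Ldha) were lower in 2n CMs, against 16.8%, and 2 (Pgam1 and Eno1) in 4n CMs, against 21% of all genes. Ldha was just short of 2-fold in 4n CMs, at -0.97, and at -1.004 without CMs with markers of other cell types. Pgk1 was at -0.65 there. None of the 10 was 2-fold higher, where 1.98% (2n) and 2.88% (4n) of all genes were at P1 and 3.03% and 2.48% at P5. This depends on the scaling, since Eno3 at P5 was at 1.12 in 2n and 1.30 in 4n CMs with the median of ratios. In 4n CMs it was at 1.16 without the 50 most abundant genes in the total and 1.04 without mitochondrially encoded genes. The share of all genes higher under these scalings was not counted. The medians of the 10 log2 ratios to P1 were -0.94 in 2n and -0.72 in 4n CMs, beside -0.34 and -0.30 for all genes. Those to P5 were -0.71 and -0.51, beside -0.45 and -0.51, so that in 4n CMs at P5 the median of the 10 was close to that of all genes. From P1 to P5 none passed 2-fold, a size at which 3.02% of all genes were higher and 1.98% lower in 2n, and 2.4% higher and 5.85% lower in 4n CMs, and the medians of the 10 were 0.18 and 0.16, beside -0.09 and -0.16. With the median of ratios, 3 genes (Pgam1, Eno1 and Ldha) were 2-fold lower at P1 in 4n CMs in place of 5, where 6.66% of all genes were lower by that scaling in place of 11.6%. At P5 in 2n CMs, Ldha (-1.11) fell short of 2-fold under 3 scalings, at -0.69 with the median of ratios, -0.83 without the 50 most abundant genes in the total and -0.96 without mitochondrially encoded genes, which left 3 of the 10 (Pgk1, Pgam1 and Eno1) against 5.93, 8.11 and 11.4% of all genes.

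**Figure D3:**
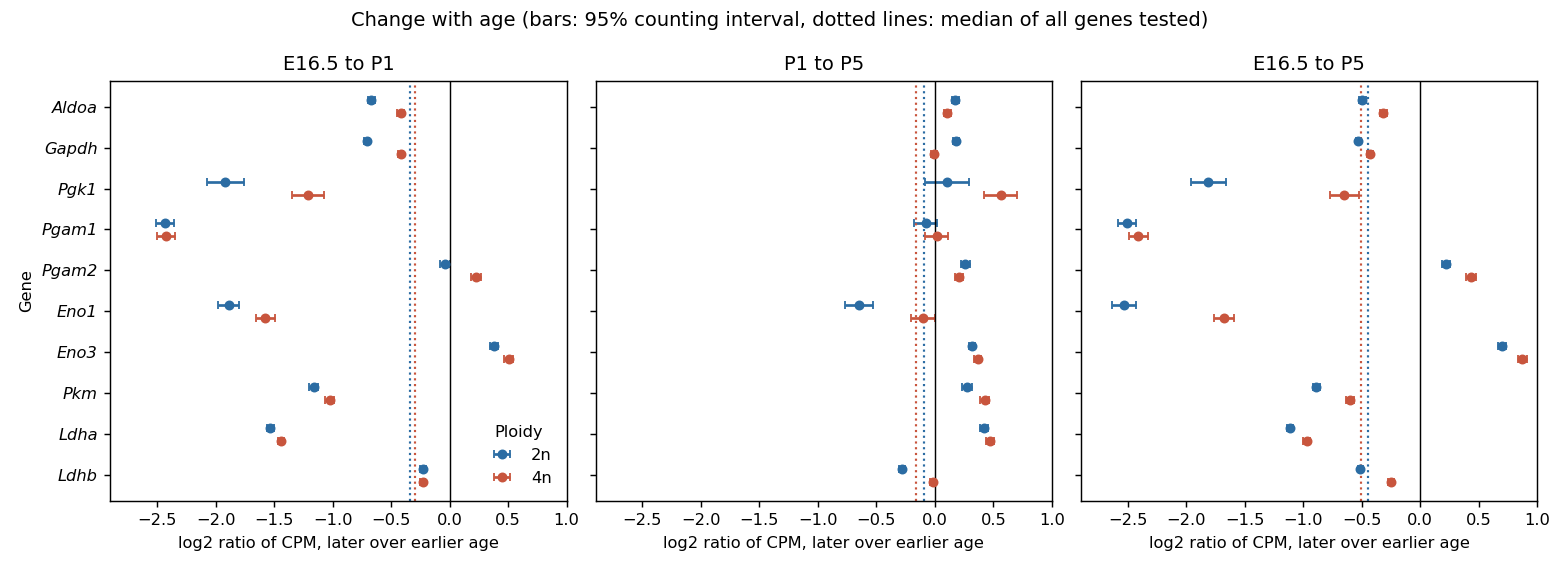
Log2 ratio of CPM, later over earlier age, of the 10 genes from E16.5 to P1, P1 to P5 and E16.5 to P5 in 2n (blue) and 4n (red) CMs, with 95% counting intervals and the median of all genes tested as dotted lines. Pgam1 lies at -2.43 from E16.5 to P1 in both ploidies, and Eno3 lies to the right of 0 in all panels.

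The 2n and 4n CMs were compared at each age. At E16.5 all 10 genes were lower in 4n than in 2n CMs, with log2 ratios of -0.44 (Aldoa) to -0.16 (Pgam1) and every counting interval below 0. Each stayed below 0 under all 12 alternatives. None reached 2-fold, a size at which 0.0208% of all genes were lower and 4.64% higher in 4n CMs. Of all genes, 54.6% were higher in 4n CMs at E16.5, 58.6% at P1 and 53.6% at P5. The sum of the 10 had a log2 ratio of 4n to 2n of -0.30 at E16.5, -0.15 at P1 and -0.12 at P5. The 4 CM genes used to select CMs were lower in 4n CMs too, with sums of 31795 (2n) and 25355 CPM (4n) at E16.5. They were at 31512 and 28901 CPM at P1 and at 31849 and 30059 CPM at P5. The median log2 ratio of the other pathway genes listed below was -0.18, -0.17 and -0.08. The lower level was thus not particular to the 10 genes. Lower in 4n CMs were 7 of the 10 genes at P1 and 8 at P5, with intervals below 0 for 6 at each age. Without CMs with cycling genes, the log2 ratios at P5 of Pgam2, Ldhb and Pkm turned from -0.09, -0.02 and -0.05 to 0.08, 0.03 and 0.0043. None passed 2-fold in either direction, where 5.23% of all genes were higher at P1 (and 0% lower) and 1.87% higher and 0.406% lower at P5. Eno3 was lower in 4n CMs at each age, with log2 ratios of -0.39, -0.27 and -0.22. Markers of cycling and of other cell types were more abundant in each 4n library than in the 2n library of its age, and their part in these differences was not tested.

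Pgk1 and Eno1 went the other way at P5. Pgk1 was counted there at 28.5 CPM in 2n and at 54.1 CPM in 4n CMs, a log2 ratio of 0.93 (0.77 to 1.08), and had been lower in 4n CMs at E16.5, at -0.24 (-0.35 to -0.12). Eno1 was at 53.8 and 83.2 CPM at P5, a log2 ratio of 0.63 (0.51 to 0.75), and at -0.23 (-0.29 to -0.16) at E16.5. CMs that held 2 or more UMIs of cycling genes made up 22.7% of P5-2n and 54.9% of P5-4n. Without them, the log2 ratios at P5 were 0.92 for Pgk1 and 0.63 for Eno1. Without CMs that held 2 or more UMIs of markers of other cell types, they were 0.91 and 0.65. The ratio of Eno1 to Eno3 was higher in 4n CMs at each age, with log2 changes of 0.16, 0.35 and 0.85. The value at E16.5 became -0.06 without the CMs with cycling genes. For Pgam1 to Pgam2 the log2 difference between 4n and 2n was 0.14 at E16.5, -0.12 at P1 and 0.03 (-0.08 to 0.13) at P5, and that at E16.5 became -0.05 without the CMs with cycling genes. For Ldha to Ldhb it was 0.04, 0.13 and -0.08, and the value at E16.5 became -0.012 without the CMs with cycling genes.

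**Figure D4:**
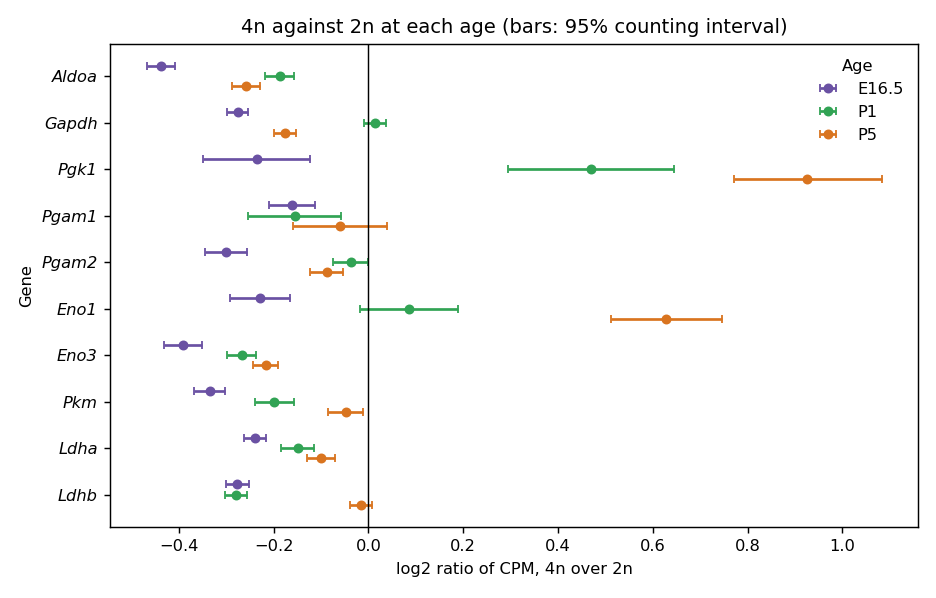
Log2 ratio of CPM, 4n over 2n, of the 10 genes at E16.5 (purple), P1 (green) and P5 (orange), 1 library per group, with 95% counting intervals. All 10 lie below 0 at E16.5, and Pgk1 (0.93) and Eno1 (0.63) lie above 0 at P5.

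Single CMs were compared after thinning each to 1000 UMIs, which left out 700 of the 7340 CMs of P1-2n and 0 to 163 CMs of the other libraries. CMs with UMIs of both Ldha and Ldhb made up 76.2% in 2n and 67.6% in 4n CMs of E16.5 hearts, 45.1% and 37.4% in those of P1 hearts and 48.7% and 46.9% in those of P5 hearts. CMs with UMIs of Ldhb and none of Ldha made up 11.3 and 14.0% before birth, 38.1 and 40.0% on P1 and then 27.8 and 29.4% on P5. Both genes were therefore seen in the same CM more often than either alone in every library but P1-4n, where Ldhb alone was seen more often. This order depends on the share of CMs that hold each gene at this depth. The share with both that would follow from those shares was not computed. CMs with UMIs of Eno3 and none of Eno1 made up 40.2 and 34.2% before birth, 57.9 and 50.3% on P1 and then 65.8 and 58.3% on P5, in 2n and 4n CMs. CMs with UMIs of Pgam1 made up 38.82% and 36.65% before birth and 7.65 to 8.72% in the postnatal libraries. Unthinned, that share was 65.0 and 62.4% before birth and 17.4 to 33.7% after birth, where it moves with the depth per CM. The enzymes other than the muscle forms Eno3 and Pgam2 are made in nearly all cell types. No cell type that lacks them was thus at hand as a background. For Eno3 and Pgam2 no such background was used, since all libraries were of sorted CMs. The shares of Pgk1 (2.55 to 9.16%), Pgam1 and Eno1 were below that of Hbb-bs in 6 of 6 libraries. Those of Pgam2 and Eno3 were below it in both E16.5 libraries, that of Aldoa in E16.5-4n, and that of Pkm in E16.5-4n and P1-4n. There a UMI of these genes in a given CM was not read as expression by that CM.

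**Figure D5:**
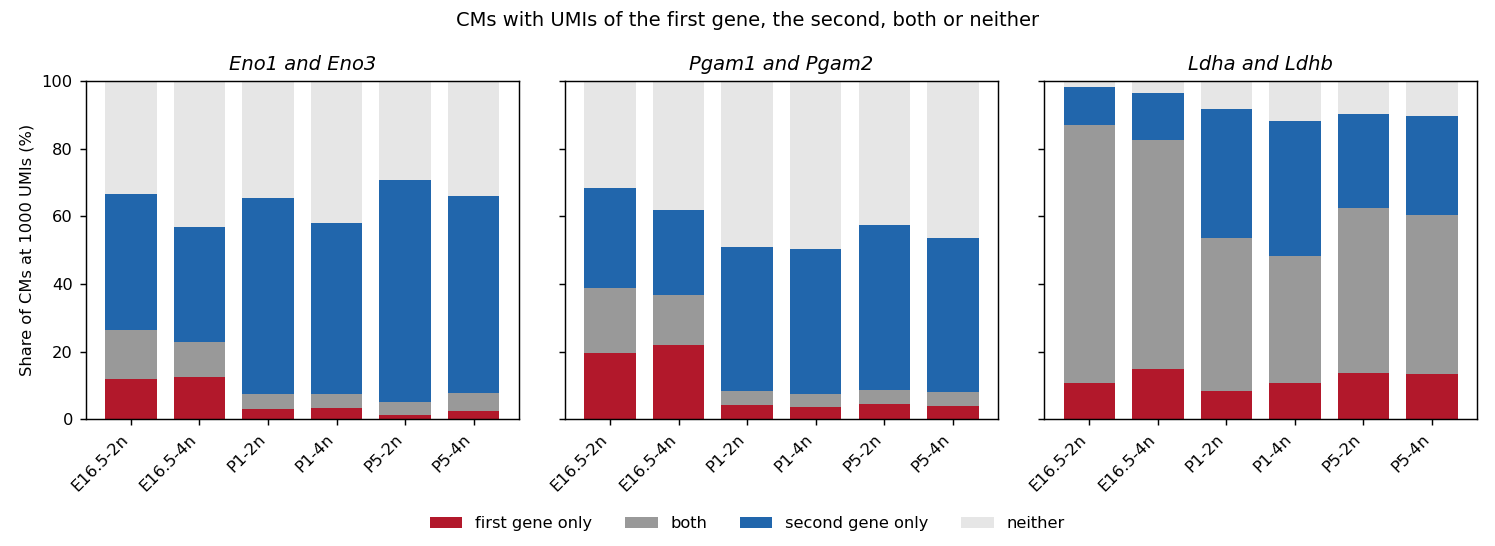
Share (%) of CMs thinned to 1000 UMIs with UMIs of the first gene only (red), both genes (dark grey), the second gene only (blue) or neither (light grey), for Eno1 and Eno3, Pgam1 and Pgam2, and Ldha and Ldhb in each library. CMs with both Ldha and Ldhb make up 76.2% of the 2n CMs before birth and 45.1% at P1, and many CMs hold neither gene of the other pairs at this depth.

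Within each library, thinned CMs with 2 or more UMIs of the 24 cycling genes were set beside those with none. The sum of the 10 was lower in the CMs with cycling genes in 6 of 6 libraries, with log2 ratios of -0.26 to -0.13 and counting intervals below 0 in all 6. Aldoa and Eno3 were lower in 6 of 6, with intervals below 0 in all 6, at -0.61 to -0.30 for Aldoa and -0.47 to -0.22 for Eno3. Pgam2 and Ldhb were lower in 6 of 6, with intervals below 0 in 5, and Pkm was lower in 6 of 6, with intervals below 0 in 4. Pgam1 was higher in 6 of 6, at 0.11 to 0.62, with intervals above 0 in 2. The muscle mutase and the common mutase thus pointed in opposite directions in every library, with the interval of Pgam1 including 0 in 4 of them. The enolases did not do so, since Eno1 was higher in only 3 of 6, at -0.47 to 0.64, with an interval above 0 in 1. CMs with exactly 1 such UMI, which fall in neither class, numbered 517 to 896 per library. Since the CMs of a library share its preparation, these are descriptions of 6 libraries. In thinned CMs with 2 or more UMIs of the markers of other cell types, the sum of the 10 was lower than in CMs with none in 6 of 6 libraries, at -0.48 to -0.19. Aldoa, Gapdh, Pgam2, Eno3, Pkm, Ldha and Ldhb were each lower in 6 of 6, with intervals below 0 in 2 (Ldha) to 6 (Ldhb) libraries. Pgam1 was higher in 2 of 6, at 0.65 (0.01 to 1.23) in P5-2n and 0.61 (0.06 to 1.13) in P5-4n. Its interval was below 0 in 1 library. Eno1 and Pgk1 were each higher in 1 of 6, with no interval above 0.

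The rest of the pathway was read from 39 other genes of glucose uptake, upper and lower glycolysis, lactate and pyruvate transport and pyruvate dehydrogenase. Of these, 27 passed 100 UMIs in 2n CMs from E16.5 to P1, of which 7 were 2-fold lower and 1 was 2-fold higher, and 28 in 4n CMs, of which 7 were lower and 1 higher, against 12.1 and 11.6% of all genes lower. Slc16a3, a lactate exporter, fell by a log2 ratio of -4.24 in 2n and -4.08 in 4n CMs, and Slc2a1, the glucose transporter of fetal tissue, by -3.26 and -3.44. The phosphofructokinase subunits differed: Pfkl was at -1.76 and -1.53, Pfkp at -1.82 and -1.89, and Pfkm, the muscle subunit, at 0.39 and 0.66. Hexokinase Hk2 was at -1.08 and -1.33. Triosephosphate isomerase Tpi1, which acts between Aldoa and Gapdh, was at -0.95 and -0.98, just short of 2-fold. The gene that was 2-fold higher was Pdk4, which encodes a kinase that inhibits pyruvate dehydrogenase, at 1.90 and 2.06. Of the kinases with the same function, Pdk3 was 2-fold lower, at -1.23 and -1.01, Pdk1 was at -0.76 and -0.89, and Pdk2 was at 0.55 and 0.96. The median of the genes tested was -0.05 in 2n and -0.12 in 4n CMs, beside -0.34 and -0.30 for all genes. From E16.5 to P5, 7 of the 27 genes tested were 2-fold lower in 2n CMs, against 16.8% of all genes. In 4n CMs 6 of 26 were, against 21%. Pdk4 was the 1 gene 2-fold higher in each. Slc16a3 was at -3.76 and -3.66, Slc2a1 at -3.94 and -4.16, and the aldolase gene Aldoc at -2.05 and -2.30. Pdk3 was at -1.87 and -1.70, Pfkp at -1.77 and -1.60, and Pfkl at -1.25 and -1.06. Pdk1 was at -1.02 in 2n and -0.86 in 4n CMs. Slc2a4, the glucose transporter of adult muscle, was at 0.73 and 0.79. Mpc1 and Mpc2, the mitochondrial pyruvate carrier, were at 0.67 and 0.77 and at 0.84 and 0.84, also short of 2-fold.

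The genes whose course over the 6 libraries was closest to each isoform were found by the root mean square (RMS) difference of log2 CPM centred over the libraries, among 6794 genes. Those closest to Eno3 were Fhl2 (RMS difference 0.04), Slc2a4 (0.05) and Pfkm (0.07). Those closest to Ldha were Pfkl (0.08), Egln3 (0.08) and Ckb (0.09), and those closest to Pgam2 were Rhot2 (0.04), Hacd1 (0.05) and Actn2 (0.05). Eno1 was closest to Plk2 (0.17), Gamt (0.18) and Aif1l (0.19), and Pgam1 to 3632451O06Rik (0.22), Tm6sf1 (0.25) and C530008M17Rik (0.26), at larger differences. Ldhb was closest to Snupn (0.03), Mtfr1l (0.03) and Pick1 (0.04). The 6 points of each course are single libraries that differ in depth, so that these are descriptions of likeness.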

How the data were processed

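Left ventricular CMs of 6 libraries, 1 per age and ploidy, were analysed. The authors counted reads with Cell Ranger, which aligned with STAR to GRCm38 (mm10), and the deposited tables hold counts of UMIs as counted, not normalized, for the cells that had been called. The submitters' processing notes also list Seurat 2.3.0. The version of Cell Ranger is not given in the sources used here. Depth was 13213992 to 19714177 UMIs per library. UMIs were summed over CMs and divided by all their UMIs (CPM), and ratios are given with exact binomial, Poisson or Clopper-Pearson intervals at 95%, without a pseudocount, and changes in isoform ratios with normal intervals from the 4 counts. Genes with at least 100 UMIs over both libraries were tested for a size of 2-fold. The authors' comparison table and background list were not used. Doublets were not called, and alternatives left out the 5% of CMs with the most UMIs, cycling CMs or CMs with markers of other cell types. No p-values were computed. The scripts (Python, numpy, scipy and pandas) were tested on simulated counts. All 10 genes, genes of the pathway lists and the 3 genes nearest to each isoform were named. The members and lists were chosen with earlier results of these data known, and the check of haemoglobin shares was added after values had been seen. Positions come from GENCODE M21 and promoters from RefSeq.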

Additional observations from a re-analysis of the deposited data

Results flagged for a closer look

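The difference between 4n and 2n CMs pointed in opposite directions at different ages for 2 genes and 2 isoform ratios, with counting intervals on opposite sides of 0, and these differences were not tested. For Pgk1 the log2 ratio of 4n to 2n went from -0.24 at E16.5 to 0.47 at P1, a difference of 0.70, and to 0.93 at P5, a difference of 1.16. For Eno1 it went from -0.23 at E16.5 to 0.63 at P5, a difference of 0.86. For the ratio of Pgam1 to Pgam2 it went from 0.14 at E16.5 to -0.12 at P1, a difference of -0.26. For the ratio of Ldha to Ldhb it went from 0.04 at E16.5 to -0.08 at P5, a difference of -0.12, and from 0.13 at P1 to -0.08 at P5, a difference of -0.21. The E16.5 values of both isoform ratios turned below 0 without CMs with cycling genes, to -0.046 for Pgam1 to Pgam2 and -0.012 for Ldha to Ldhb. That of Ldha to Ldhb was also -0.0013 in CMs thinned to 2000 UMIs. The opposite directions from E16.5 for these 2 ratios thus depend on the CMs used.

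The 423 cells that lacked a UMI of at least 1 of the 4 CM genes were not part of any comparison, and there the 10 genes summed to 4928 CPM (2534 of 514213 UMIs), with a range of 2530 to 6105 CPM over the libraries.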

How the results depend on the processing

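Each group is 1 library, so no replicate could be left out. The difference between 4n and 2n over the 3 ages, with age as a block, was not tested. Of the 120 log2 values for the main comparisons under the alternatives, 84 stayed within the counting interval and 36 moved, and of the 52 counts of genes, 49 stayed within 1.5 times the main count and 3 moved. Alternatives that change only the library total cancel in an isoform ratio, so the ratios could not move under them. Most of the log2 values that moved were those of the summed level. The log2 ratio of the summed level, given for E16.5 to P1 in 2n and 4n and for E16.5 to P5 in 2n and 4n, was -0.67, -0.53, -0.54 and -0.37. It moved to -0.37, -0.22, -0.12 and 0.062 with the median of ratios, to -0.44, -0.29, -0.26 and -0.078 without the 50 most abundant genes in the total, and to -0.54, -0.39, -0.39 and -0.20 without mitochondrially encoded genes. It was -0.70, -0.55, -0.55 and -0.39 as a mean over cells and -0.69, -0.54, -0.56 and -0.39 in CMs thinned to 1000 UMIs. Thinned to 2000 UMIs it was -0.66 (P1, 2n), -0.59 (P5, 2n) and -0.39 (P5, 4n), and without CMs with cycling genes -0.70 and -0.57 (P1, 2n and 4n) and -0.33 (P5, 4n). Without CMs with markers of other cell types it was -0.51 (P1, 4n) and -0.40 (P5, 4n), without erythroid genes in the total -0.38 (P5, 4n), and without the 5% of CMs with the most UMIs -0.69 (P1, 2n). From E16.5 to P5, the log2 change of Eno1 to Eno3 was -3.34 thinned to 2000 UMIs (2n) and -2.43 without cycling CMs (4n), that of Pgam1 to Pgam2 was -2.63 both as a mean over cells and thinned to 1000 UMIs (2n), and that of Ldha to Ldhb was -0.55 as a mean over cells (2n) and -0.62 without cycling CMs (4n). The count of genes 2-fold lower at P1 in 4n CMs went from 5 to 3 with the median of ratios and without the 50 most abundant genes, and the count past the threshold in either direction at P5 in 4n CMs from 2 to 6 at 1.5-fold (5 lower and Eno3 higher), a size at which 44.5% of all genes were lower. At P1 in 2n CMs it went from 5 to 4 under both scalings, without Pkm. The median of ratios shifted log2 ratios by 0.30 to P1 and by 0.43 to P5 in both ploidies. In single genes, Ldha at P5 in 2n CMs (-1.11) became -0.69 and Pgk1 at P1 in 4n CMs (-1.21) became -0.91 with it, and Aldoa at P5 in 4n CMs went from -0.32 to 0.11. With a minimum of 20 UMIs in place of 100, the genes past 2-fold in either direction went from 1322 to 2263 and from 1446 to 2250 (E16.5 to P1, 2n and 4n), from 462 to 1082 and 805 to 1611 (P1 to P5), from 1889 to 2933 and 2251 to 3440 (E16.5 to P5), and from 449 to 1022, 505 to 1262 and 213 to 441 (4n against 2n at E16.5, P1 and P5). With 1 library per group, depth limits only the counting error.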
